A study of Mus musculus with 67 samples.

Results

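The genes described here are the replication-dependent histone genes of the mouse, taken as every gene in the deposited table whose symbol starts with Hist1h, Hist2h, Hist3h or Hist4h, leaving out symbols marked as pseudogenes. They were 57 of the 26414 genes in the table. They comprised 6 genes of the linker histone H1, which binds the DNA between nucleosomes, and 17 genes of H2A, 14 of H2B, 11 of H3 and 9 of H4, the core histones that DNA is wound around. On the GRCm38 assembly (GENCODE M21 annotation) 47 of them lay on chromosome 13 between 21715763 and 23934851, 7 on chromosome 3 between 96220361 and 96270132, 2 on chromosome 11 between 58948920 and 58956830, and Hist4h4 alone on chromosome 6. The annotation gave 54 of the 57 a structure of 1 exon.

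Cells make these histones in large amounts in S phase, when newly copied DNA has to be packed. Their mRNAs carry no introns and end in a short stem-loop in place of a poly(A) tail. The stem-loop binding protein (SLBP) and the U7 small nuclear ribonucleoprotein direct the cut behind the stem-loop, and the mRNAs are degraded when DNA synthesis stops. Transcripts that run past the stem-loop to a poly(A) signal are known from cells that leave the cycle. The libraries were made with SMART-seq2, which copies RNA from an oligo(dT) primer, so a histone mRNA that ends at its stem-loop is poorly captured, and a change in the amount of a histone mRNA cannot be told apart here from a change in the fraction that carries a poly(A) tail.

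The samples were C57BL/6 mouse embryos made by in vitro fertilisation, with oocytes from females of 6 weeks and sperm from males of 10 weeks. Light embryos received light of 5000 lx during 6 h as 2-cell embryos, with culture in the dark afterwards, whereas control embryos stayed at 0 lx. A library was made from a single cell picked from a dissociated embryo. The series held 33 control and 34 light libraries: 7 control and 6 light 2-cell libraries, 6 and 8 from 4-cell embryos, 4 and 8 from 8-cell embryos, 13 and 6 from morulae, and 3 and 6 from blastocysts. The labels number the libraries and do not say which came from 1 embryo, so the p-values below treat libraries as independent. The cell-cycle phase of the cells was not recorded.

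The deposited value of a gene is its read number divided by a factor of the library, with no division by gene length. A library held between 836011 and 8551674 reads (median 4632053), of which 54.0% to 89.3% fell on CT010467.1 and Gm42418, a pair of genes that carry ribosomal RNA sequence. The histone genes received 47668 reads in all, with 27 to 2259 per library (median 481). A count of 3 reads, used here as the lowest level that could be told from 0, corresponded to a value between 0.797 and 11.7 (median 1.97). Between 10 and 12 of 12 oocyte and embryo marker genes had reads in every group, while 6 sperm marker genes together never passed 10.4 and 6 cumulus marker genes together never passed 68.7, a value reached in the light 2-cell group. The ratio of Gm42418 to CT010467.1 reads separated the conditions at most stages. It was 2.34 to 4.03 in control and 1.58 to 1.77 in light 2-cell libraries, 2.01 to 2.34 and 1.52 to 1.71 at the 8-cell stage, and 2.34 to 4.14 and 1.49 to 1.67 in morulae. In control 4-cell libraries 1 and 2 it was 4.55 and 4.35, against 1.61 to 1.98 in the other 4 control libraries and 1.43 to 1.63 in light libraries. The part of this difference in the results below was not tested.

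The stem-loop was found in the annotated 3′ end of 39 of the 57 genes, of which 45 had an annotated 3′ untranslated region that could be searched. Among genes with such a region it was present in 39 of 45 histone genes (86.7%) and 61 of 21166 genes across the genome (0.288%). The search asked for arms of 6 bases that pair exactly, the first arm opening with GG and ending in T, around a loop of 4 bases with T as its first base and again after the next one. The form GGCTCTTTTCAGAGCC occurred in 22 genes, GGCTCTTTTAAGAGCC in 6, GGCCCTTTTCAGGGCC in 5 and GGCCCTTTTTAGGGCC in 2. The sequences of 7 genes whose values are given in detail below are shown because this element decides how the mRNA ends. They are written 5′ to 3′ on the strand of the gene, from GENCODE M21 transcripts on GRCm38, and the capitals mark the stem-loop.
Hist1h1e (chr13:23621777-23621802, minus strand): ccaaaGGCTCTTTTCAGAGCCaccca
Hist1h1c (chr13:23739507-23739532, plus strand): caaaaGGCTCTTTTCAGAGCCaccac
Hist1h2ae (chr13:23570663-23570688, minus strand): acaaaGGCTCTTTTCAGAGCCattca
Hist1h3f (chr13:23544927-23544952, plus strand): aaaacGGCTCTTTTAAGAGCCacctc
Hist1h4d (chr13:23581945-23581970, plus strand): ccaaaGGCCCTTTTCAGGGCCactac
Hist2h4 (chr3:96262934-96262959, minus strand): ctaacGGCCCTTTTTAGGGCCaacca
Hist4h4 (chr6:136803993-136804018, minus strand): acaaaGGCCCTTTTCAGGGCCcacaa
The linker histone and H2A genes among them share 1 stem-loop, and the H4 genes carry C-rich arms. For 24 genes the annotation held a transcript that ran more than 50 bases past the stem-loop or, for Hist1h2bp, another transcript besides the one that ends near it, and these genes took 52.8% of the histone reads (median 364.5 reads a gene). The 15 genes annotated to end near the stem-loop took 13.2% (median 117 reads). The 18 genes with no stem-loop in their model, among them genes with no annotated 3′ untranslated region, took 33.9% (median 135 reads). These reads were not divided by transcript length, whose median was 966, 480 and 396 nt in that order. The part of length in the shares was not tested.

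The stretches just before the transcription start also followed the histone type. RefSeq gave a start for 50 of the 57 genes, and windows from 250 bases before to 50 bases after it were searched on both strands in 27025 promoters. CCAAT was present in 90% of the histone promoters and 41.1% of all promoters, and among the H4 genes in 3 of 8. TATAAA was present in 58% against 15.7%. The octamer ATTTGCAT was present in 26% against 1.97%, in 7 of 15 H2A and 6 of 12 H2B promoters and in 0 of the H1, H3 and H4 promoters. AAACACA, known as the H1 box, was present in 5 of 6 H1 promoters and 8.22% of all promoters. The 140 bases before the RefSeq start (GRCm38.p6) are shown for 4 linker histone genes, 3 with the H1 box and 1 without it, whose values are described below, and for the testis-type gene Hist1h2aa. The capitals mark the 4 motifs on either strand.
Hist1h1a (chr13:23763528-23763667, plus strand): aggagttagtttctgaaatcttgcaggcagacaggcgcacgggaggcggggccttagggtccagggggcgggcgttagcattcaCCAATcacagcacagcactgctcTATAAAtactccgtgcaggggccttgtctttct
Hist1h1b (chr13:21780626-21780765, minus strand): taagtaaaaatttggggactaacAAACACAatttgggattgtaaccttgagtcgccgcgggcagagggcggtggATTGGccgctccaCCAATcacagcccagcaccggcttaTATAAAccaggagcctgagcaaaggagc
Hist1h1c (chr13:23738667-23738806, plus strand): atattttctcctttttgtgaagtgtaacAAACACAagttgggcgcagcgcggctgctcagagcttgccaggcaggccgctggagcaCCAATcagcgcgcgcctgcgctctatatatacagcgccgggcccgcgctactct
Hist1h1e (chr13:23622559-23622698, minus strand): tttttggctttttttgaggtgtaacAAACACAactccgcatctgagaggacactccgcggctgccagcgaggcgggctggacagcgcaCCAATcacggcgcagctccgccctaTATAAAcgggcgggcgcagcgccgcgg
Hist1h2aa (chr13:23934297-23934436, plus strand): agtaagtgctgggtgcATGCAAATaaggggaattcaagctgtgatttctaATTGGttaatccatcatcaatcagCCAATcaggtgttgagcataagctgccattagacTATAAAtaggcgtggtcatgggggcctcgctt
AAACACA began 117 bases before the start in Hist1h1b, 112 in Hist1h1c and 115 in Hist1h1e. These letters were not in the Hist1h1a window, while CCAAT stood 51 to 65 bases before the start in 5 of the 6 linker histone genes, and at 53 and 66 in Hist1h1b. The testis-type H2B gene Hist1h2ba lies on the opposite strand, with 140 bases between its start and the far end of the Hist1h2aa window.

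The reads fell unevenly on the types. H3 genes took 28.6% of the histone reads, H4 25.1%, H1 23.4% and H2A 20.4%, while the 14 H2B genes took 2.49%. Per kb, Hist2h3b and Hist1h4d stood highest, in an order that turned with the transcript model: 15070 and 6540 reads per kb by the longest GENCODE transcript, and 14650 and 18510 by the RefSeq length. Hist2h4 was at rank 12 by the first and rank 3 by the second. Hist1h4d and Hist2h3b alone held 15.6% and 15.4% of all histone reads. Reads of near-identical copies could not be assigned with confidence. For Hist2h3b, 73.75% of the 150-base windows of its transcript also occur in another gene (Hist2h3c1, Hist2h3c2 or Gm20634). For Hist1h2ao the share was 91.54%, for Hist1h2ap 90.99% and for Hist1h3i 52.67%, and 16 of the 57 genes shared more than 50%. It was 24.5% for Hist1h2ae, 19.48% for Hist1h1e, which overlaps Hist1h2be, and 0 for Hist1h4d, Hist2h4 and Hist1h1a to Hist1h1d. How the reads of shared stretches were assigned was not given in the sources used here, so the values of Hist2h3b and Hist2h3c2 may not be independent.

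The summed histone value of a library followed a different course in the 2 conditions. In control libraries its median was 310 in 2-cell, 79.3 in 4-cell and 117 in 8-cell embryos, 775 in morulae and 173 in blastocysts. In light libraries the medians were 277, 416, 359, 284 and 433. At the 8-cell stage the control libraries held 154, 17.6, 130 and 104, and the light libraries 121 to 594, so the lowest light library lay within the control range. In morulae the control libraries held 368 to 1942, and the light libraries 154 to 1164. Light morula libraries 6 and 3, at 1164 and 645, and 9, at 386, reached into the control range, and the other 3 stood at 154 to 181. The control 4-cell group was split, with 430 and 376 in libraries 1 and 2 and 22.2 to 82.6 in the other 4.

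**Figure D1:**
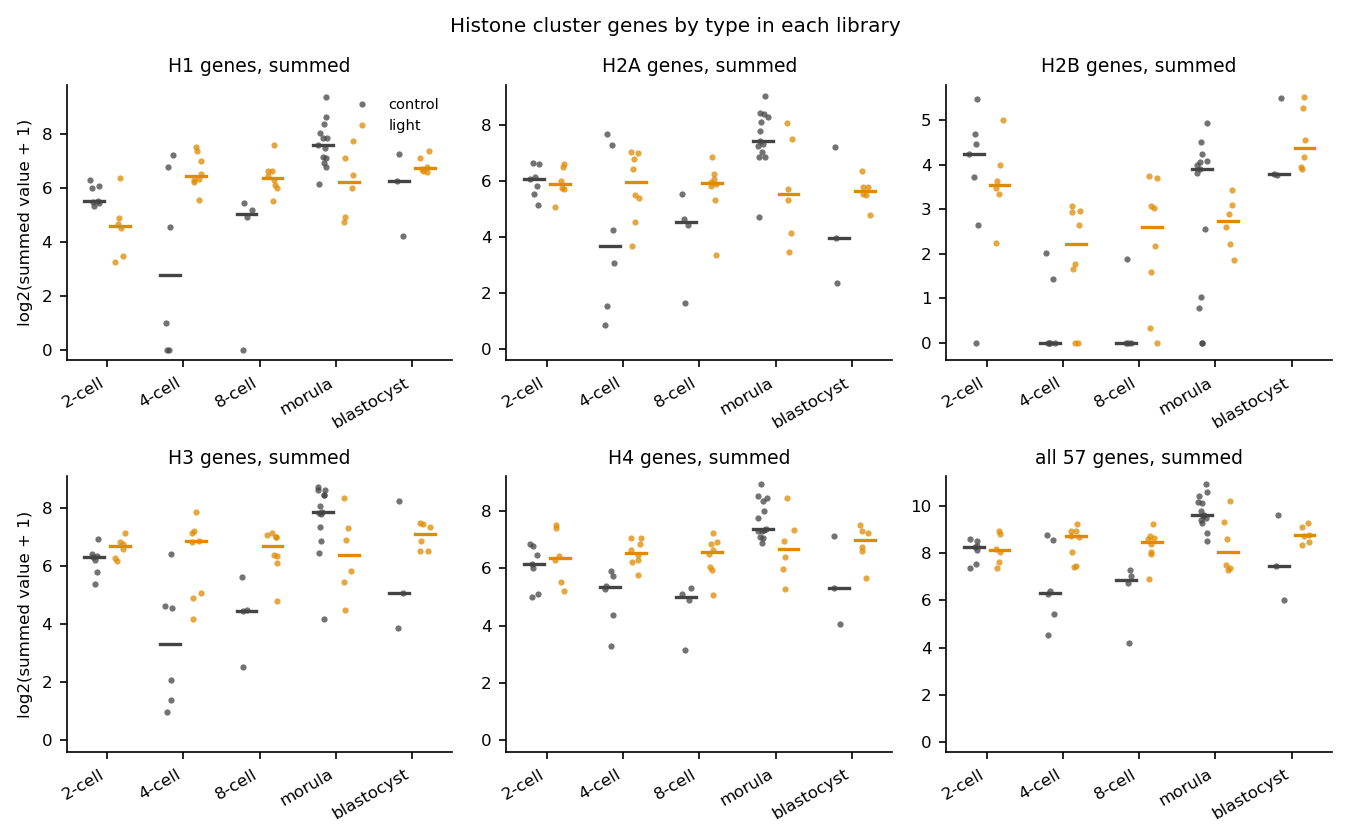
Summed deposited value of the genes of each histone type in every library, on a log2(sum + 1) axis, by stage; grey points are control libraries, orange points light libraries and bars medians. The median H1, H2A, H3 and H4 sums of control libraries are low at the 4-cell and 8-cell stages and high in morulae. The light medians lack this dip, and H2B stays low throughout. The control 4-cell libraries are spread, with H1 sums of 0 to 147 and H2A sums of 0.821 to 205.

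The H1, H2A, H3 and H4 sums had similar courses. Over the 67 libraries Spearman's rho between them was 0.690 to 0.795, against 0.277 to 0.443 with H2B, as a description over libraries that share stage and depth differences. H1 in control libraries had a median of 44.1 in 2-cell, 11.7 in 4-cell and 31.8 in 8-cell embryos, 188 in morulae and 74.5 in blastocysts, and in light libraries 22.8, 84.6, 80.3, 74.6 and 105. The median H2B sum did not pass 19.8 in any group and was 0 in control 4-cell and 8-cell libraries. Over the 67 libraries Spearman's rho of the summed histone value was 0.118 with total reads and 0.364 with the percentage of reads on the ribosomal pair. With the number of genes detected it was -0.338. For the sum scaled to the reads outside the ribosomal pair these were 0.252, 0.644 and -0.456 in that order. The part of these measures in the histone values was not tested.

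Of the testis-type histones, which replace the somatic forms in male germ cells, 1 was abundant. Hist1h2aa, the gene of TH2A, which is also known from oocytes and early embryos, had values of 16.5 to 80.0 (median 37.5) in control and 12.8 to 89.4 (median 22.8) in light 2-cell libraries. It was again at 0 to 154 (median 28.1) in control and 0.873 to 161 (median 7.58) in light morulae, and had 0 reads in the 3 control blastocysts. Its partner Hist1h2ba (TH2B) reached 7.29 in control and 15.5 in light 2-cell libraries, and afterwards had reads in only 1 light 8-cell library and 1 control morula. Hist1h1t (H1t) had reads in 2 control morulae alone, at 0.933 and 1.05.

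From 2-cell to 4-cell in control embryos, when maternal mRNAs are cleared and the embryonic genome is active, 11 histone genes fell, a share close to that of all genes. Of the 57 genes 35 passed the filter (a value above 1 in at least 3 libraries compared), and 11 of these fell (31.4%) and 0 rose. Across all genes 32.3% fell and 13.8% rose, 46.1% in all, and the median log2 fold change was -0.53 for the histone genes and -0.72 for all genes. A gene was called in all these comparisons at an adjusted p under 0.05 in limma and at least a 2-fold change on the log2(value + 1) scale. Hist4h4, an H4 gene outside the clusters, was at 24.0 to 90.0 (median 47.6) in 2-cell libraries, and at 8.52 and 5.90 in 4-cell libraries 1 and 2 and 0 in the other 4. The groups did not overlap, as for 3 of 35 histone genes and 20.4% of all genes tested at this step. Hist4h4 fell by 4.54 ± 0.70 on the log2 scale (SE, adjusted p = 1.98e-05, limma). Hist1h3f, an H3 gene, went from 6.25 to 44.3 (median 10.4) to at most 0.760, again without overlap, and fell by 3.60 ± 0.62 (adjusted p = 6.62e-05, limma). No 4-cell library was above 1, so Hist1h3f passed the filter through the 2-cell libraries alone. Hist1h1a, the H1 gene without the H1 box, fell by 3.86 ± 0.76 (adjusted p = 0.000288, limma) from 24.1 to 61.3 (median 30.2) to 0 to 15.1 (median 0.190). Hist1h2aa fell by 3.68 on the log2 scale, from a mean of 41.4 to 4.93.

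The other genes that fell at this step were Hist2h3b, Hist2h3c2, Hist1h4c, Hist2h2aa2, Hist1h2ba, Hist1h2an and Hist3h2ba. The last 3 had 0 reads in the 6 control 4-cell libraries and so passed the filter through the 2-cell libraries alone, and against the level of 3 reads per library they were at least 1.52-fold, 2.52-fold and 1.61-fold lower than at the 2-cell stage. Hist4h4, Hist1h3f, Hist1h1a, Hist1h2aa, Hist2h3c2, Hist2h3b and Hist1h2ba were called whichever library was left out. The other 4 calls were each lost in 5 to 10 of the 13 omissions, of 4-cell libraries 4 or 5 among others, which left 7 calls. With edgeR the calls of Hist2h3b, Hist1h4c and Hist2h2aa2 were lost, and with scaling to the reads outside the ribosomal pair those of Hist2h2aa2 and Hist3h2ba. With control 4-cell libraries 1 and 2 left out together, 8 of 32 genes fell (43.7% of all genes were called), and Hist1h2ba, Hist1h2an and Hist3h2ba were no longer called.

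In light embryos the same step lowered some genes and raised others. Of 39 genes tested, 7 rose and 4 fell (28.2% called, against 36.5% of all genes), with a median of 0.02 against -0.56. Across all genes 7.43% rose and 29.0% fell. The genes that fell were Hist4h4, Hist1h3f, Hist1h1a and Hist1h2ba, each of which also fell in control embryos. Hist1h2ba had 0 reads in the light 4-cell libraries and so passed the filter through the light 2-cell libraries alone. Hist4h4 went from 21.8 to 77.7 (median 45.3) to 0 to 7.31 (median 1.99), without overlap, and fell by 3.99 ± 0.67 on the log2 scale (adjusted p = 2.53e-05, limma). Groups did not overlap for 3 of 39 histone genes and 13.0% of all genes at this step. The call of Hist1h1a (-2.19) was lost without light 2-cell library 16, with median-ratio scaling and with edgeR, which also lost that of Hist1h3f.

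The genes that rose between these stages in light embryos were mostly linker histone genes: Hist1h1d, Hist1h1e, Hist1h1c and Hist1h1b, with Hist1h2ab, Hist1h3e and Hist1h4d. Hist1h1d was at 0 to 6.31 (median 0.283) in light 2-cell and 12.5 to 71.6 (median 24.1) in light 4-cell libraries. The groups did not overlap, as for 13.0% of all genes, and the increase was 3.85 ± 0.66 on the log2 scale (adjusted p = 3.25e-05, limma). Hist1h1e went from 0 to 3.89 (median 0.917) to 5.88 to 37.6 (median 22.4), also without overlap, by 3.36 ± 0.65 (adjusted p = 0.000146, limma). In control embryos the values of Hist1h1d were 0 to 11.0 (median 3.91) and then 0 to 35.4 (median 2.62). The change of Hist1h1d from 2-cell to 4-cell differed between light and control by 3.89 ± 1.07 on the log2 scale (adjusted p = 0.0363, limma), the only call among 48 histone genes (3.07% of all genes were called). That call was lost in 9 of 27 omissions of 1 library, namely control 2-cell 9, control 4-cell 4, 5 and 6, light 2-cell 14 and 9, and light 4-cell 1, 5 and 9. With control 4-cell libraries 1 and 2 left out, 4 of 47 were called (4.01% of all genes), Hist1h1d at 4.82, Hist1h1b at 3.89, Hist1h1c at 3.70 and Hist1h1e at 3.46.

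**Figure D2:**
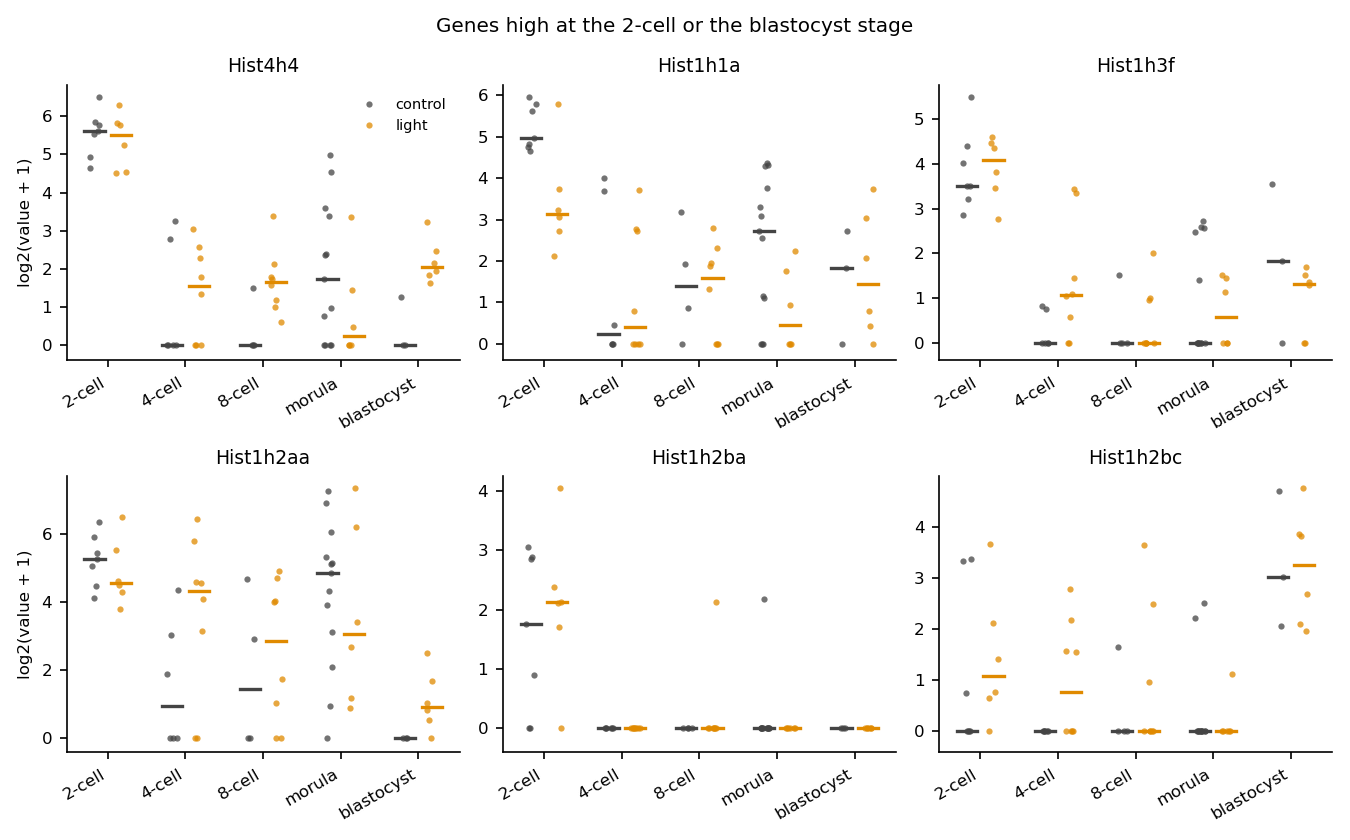
Deposited values on a log2(value + 1) axis of 6 genes by stage, with grey points for control and orange points for light libraries and a bar at each median. Hist4h4 and Hist1h3f are high at the 2-cell stage in both conditions and low afterwards. Hist1h1a is high in control 2-cell libraries, while most light 2-cell libraries lie below them, and it is low afterwards. Hist1h2aa is high again in morulae, Hist1h2ba is seen almost only at the 2-cell stage, and Hist1h2bc is highest in blastocysts.

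Between the 4-cell and 8-cell stages few histone genes changed. In control embryos 0 of 22 were called by limma, 0 had an unadjusted p under 0.05 and edgeR called 0, while 6.31% of all genes were called. In light embryos Hist2h3b rose by 1.32 on the log2 scale (adjusted p = 0.0481, limma), from a mean of 27.3 to 55.7, as 1 of 36 genes tested (10.6% of all genes were called). That call was lost in 11 of 16 omissions, namely light 4-cell 6, 9, 11, 13 and 14 and light 8-cell 5, 6, 7, 9, 10 and 11. The change over this step differed between light and control for 0 of 38 histone genes by limma (3.80% of all genes), with 1 at an unadjusted p under 0.05 and 0 by edgeR.

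Between the 8-cell and morula stages of control embryos, when the embryo compacts, 12 histone genes rose and 0 fell. Of the 57 genes 41 were tested, and 29.3% of these were called, against 14.3% of all genes (6.84% higher). The median was 1.64 for the histone genes tested and 0.04 for all genes. With 4 control 8-cell libraries and 13 control morulae the filter favours genes that are high in morulae. Of the 41 genes 14 had no 8-cell library above 1, Hist1h1e and Hist1h2ag among those called, so the count and the median are partly set by the filter. Hist1h1e, a main somatic linker histone, had values of 0, 0, 0 and 0.417 in the 4 control 8-cell libraries, the last from 1 read, and 9.91 to 316 (median 52.0) in control morulae, from 1348 reads. The groups did not overlap, as for 4 of 41 histone genes and 5.02% of all genes tested at this step. The increase was 5.72 ± 0.66 on the log2 scale (adjusted p = 9.97e-07, limma). Hist1h4d rose from 7.45 to 32.5 (median 22.2) to 52.0 to 309 (median 127), also without overlap, by 2.86 ± 0.46 (adjusted p = 9.74e-05, limma).

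The genes called were 4 of 5 linker histone genes tested (Hist1h1e, Hist1h1c, Hist1h1b and Hist1h1d, median of the type 2.86), 4 of 15 H2A genes (Hist1h2ae, Hist1h2ap, Hist1h2ao and Hist1h2ag), 2 of 11 H3 genes (Hist2h3b and Hist2h3c2) and 2 of 8 H4 genes (Hist1h4d and Hist2h4), and 0 of 2 H2B genes. Hist1h2ae went from a mean of 1.98 to 77.8, Hist2h3b from 11.9 to 185 and Hist2h4 from 3.71 to 48.3. Hist1h1e, Hist1h4d, Hist2h4, Hist2h3b, Hist1h2ae and Hist1h2ap were called whichever library was left out. Without control 8-cell library 2, in which the histone genes summed to 17.6, these 6 alone remained called. Without 8-cell library 3 Hist1h1b and Hist2h3c2 were lost and without 8-cell library 1 Hist1h2ao, and the call of Hist1h2ag was lost in 13 of 17 omissions. edgeR called 8 of the 12, without Hist1h1d, Hist1h2ao, Hist1h2ag and Hist2h3c2. In light embryos 0 of 35 genes were called over the same step (11.8% of all genes), with 1 at an unadjusted p under 0.05 and 0 by edgeR, and the median was 0.03.

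The change from 8-cell to morula differed between the conditions. Of 48 genes in this test, 7 were called, each with a smaller change in light than in control embryos (14.6%, against 2.62% of all genes), with a median of -1.13 against -0.03. The filter took any 3 libraries of the fit, so a gene could enter through the control morulae alone. In the control step 14 of 41 genes had no 8-cell library above 1, Hist1h1e among them. The count and the median may therefore be partly set by the filter. The difference was -5.54 ± 0.90 on the log2 scale for Hist1h1e (adjusted p = 0.000148, limma), -4.31 ± 0.91 for Hist2h3b (adjusted p = 0.00359) and -4.70 ± 1.01 for Hist2h4 (adjusted p = 0.00443). For Hist1h2ae it was -5.59 ± 1.26 (adjusted p = 0.00737, limma) and for Hist1h2ap -4.19 (adjusted p = 0.0117, limma). These 5 were called in each of 31 omissions of 1 library, and edgeR called 4 of them, without Hist2h4. Hist1h1b (-3.98, adjusted p = 0.0378, limma) was lost without control 8-cell 2 or 3, light 8-cell 5, 6, 10 or 11, or light morula 5 or 12. Hist1h1c (-3.41, adjusted p = 0.0385, limma) was lost without control 8-cell 2, control morula 16, light 8-cell 5, 7, 9, 10 or 11, or light morula 5 or 12. Rpph1, an RNA made without a poly(A) tail, differed in the same direction over this step (-4.39, adjusted p = 0.0207, limma), and its part in the histone values was not tested. The 4 control 8-cell libraries stand on 1 side of this difference and in the 8-cell comparison below, so the 2 results are not independent.

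From morula to blastocyst in control embryos, 8 of 44 histone genes were called (18.2%, against 11.9% of all genes), 6 lower and 2 higher, and the median was -0.81 against 0.28. With 13 control morulae and 3 control blastocysts the filter favours genes that are high in morulae. Of the 44 genes 29 had fewer than 3 blastocysts above 1, and 5 had none, so the count and the median are partly set by the filter. The 2 that rose were H2B genes. Hist1h2bc was at 0 to 4.68 (median 0) in control morulae and at 3.16, 25.0 and 7.06 in the 3 control blastocysts. The groups overlapped in part, and the increase was 2.89 ± 0.65 on the log2 scale (adjusted p = 0.00372, limma). Hist1h2bg rose by 1.95 (adjusted p = 0.0110, limma). Of the genes that fell, Hist1h2aa was at least 26.3-fold lower in the 3 control blastocysts, which had 0 reads. It passed the filter through the morulae alone. Hist1h2ao fell by 3.19 on the log2 scale (adjusted p = 0.00972, limma), without overlap between groups. Groups did not overlap for 3 of 44 histone genes and 7.88% of all genes at this step. The others were Hist1h4d (-2.32), Hist1h2ap (-3.15), Hist1h2ae (-3.66) and Hist2h3b (-2.70), the last of which was called under 0 of 6 other settings. edgeR called 3 of the 8 (Hist1h4d, Hist1h2aa and Hist1h2ae).

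With 3 control blastocysts these calls turned on single libraries. Without control blastocyst 1 only Hist1h2bc kept its call and Hist1h2ah was added. Without blastocyst 3 the calls of Hist1h2aa, Hist1h4d, Hist1h2ae, Hist2h3b and Hist1h2ao were lost and 3 genes stayed called, and without blastocyst 2 those of Hist1h2bc, Hist1h2bg and Hist1h2aa were lost. Hist2h3b was lost in 13 of 16 omissions, 11 of them of control morulae. In light embryos 2 of 39 genes were called over this step (20.7% of all genes). Hist1h2bc was at 0 in 5 of 6 light morulae and 1.18 in the other, and at 2.88 to 26.0 (median 9.27) in light blastocysts. The groups did not overlap, as for 1 of 39 histone genes and 8.22% of all genes tested. The increase was 3.01 ± 0.65 (adjusted p = 0.000999, limma). The control call of Hist1h2bc was lost with edgeR and without control blastocyst 2, and the light call was not. Hist1h2aa fell by 2.53 (adjusted p = 0.0330, limma), a call lost without light morula 3 or 6 or light blastocyst 13, 24 or 29 and under 4 of 5 other settings. Under either alternative scaling of the libraries only increases were called over this step in light embryos, 6 and 4 of them. The change from morula to blastocyst differed between light and control for 0 of 50 histone genes by limma (1.57% of all genes were called), with 14 at an unadjusted p under 0.05 and 0 by edgeR, and the median difference was 1.06 against -0.63.

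Light and control embryos were also compared directly within each stage. The ratio of Gm42418 to CT010467.1 reads separated the conditions at most stages too, and its part in these differences was not tested. At the 2-cell stage 0 of 44 genes were called by limma, where 10.5% of all genes were called. There were 5 with an unadjusted p under 0.05, edgeR called 0, and the median was 0.04 against 0.00. The linker histone gene Hist1h1a had the lowest adjusted p of those named, with 24.1 to 61.3 (median 30.2) in control and 3.35 to 54.4 (median 7.86) in light libraries and a log2 fold change of -1.78 ± 0.62 (adjusted p = 0.0594, limma). Only light library 16, at 54.4, lay in the control range, and without it Hist1h1a was called. Hist1h3a, at a mean of 9.37 in control and 25.8 in light libraries, was called without control library 17 or 24.

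At the 4-cell stage 0 of 33 genes were called by limma, where 1.45% of all genes were called. There were 11 histone genes with an unadjusted p under 0.05 and 0 calls by edgeR. The median log2 fold change was 1.01 against 0.13. Of the 33 genes 5 had no control library above 1 and so passed the filter through the light libraries. By type the medians were 2.75 for H1, 1.18 for H3, 1.00 for H4 and 0.06 for H2A. Hist1h1c had 0 to 19.7 (median 0.950) in control and 8.08 to 55.4 (median 26.6) in light libraries, a difference of 2.98 ± 0.81 (adjusted p = 0.0555, limma). Hist1h1d differed by 2.83 ± 0.77 (adjusted p = 0.0585, limma), Hist2h4 by 2.82 (adjusted p = 0.0609) and Hist1h1e by 2.75 (adjusted p = 0.0861).

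These 4-cell values depended on the control libraries compared. Without control library 3 there were 6 calls (Hist1h1c, Hist1h1e, Hist1h1d, Hist1h3a, Hist2h4 and Hist1h3i), without control library 1 there were 3 (Hist1h1c, Hist1h1e and Hist2h3b), without control library 2 also 3 (Hist1h1c, Hist1h1d and Hist1h2ab), and without light library 13 or 14 there was 1 (Hist2h4 or Hist1h3a). With control libraries 1 and 2 left out together, the ones with the high Gm42418 ratio and the high histone sums, 6 of 32 genes were higher in light libraries (2.00% of all genes called) and the median was 1.26 against -0.07. They were Hist1h1c (4.29, adjusted p = 0.00210, limma), Hist1h1d (3.76, adjusted p = 0.00710), Hist1h1b (3.57, adjusted p = 0.0142), Hist1h2ab (3.56, adjusted p = 0.0203), Hist1h1e (3.49, adjusted p = 0.0191) and Hist2h3b (2.97, adjusted p = 0.0425). This omission was chosen after the values had been seen.

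At the 8-cell stage 6 histone genes were higher in light than in control embryos and 0 lower. Of the 57 genes 29 were tested, and 20.7% of these were called, against 9.21% of all genes (5.91% higher). The median was 1.30 against 0.16. Of the 29 genes 7 had no control library above 1, Hist1h1e and Hist1h3i among those called. These passed the filter through the light libraries alone, so the count and the median are partly set by the filter. The 6 comprised 3 of 5 linker histone genes, 2 of 8 H3 genes and 1 of 5 H4 genes, with 0 of 10 H2A genes and 0 of 1 H2B gene. The type medians were 2.53 for H1, 1.57 for H3, 1.18 for H4 and 0.83 for H2A.

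Hist1h1e was at 0, 0, 0 and 0.417 in the 4 control 8-cell libraries, 1 read in all, and at 6.98 to 58.0 (median 15.5) in the 8 light libraries, from 320 reads. The groups were fully apart, as for 4 of 29 histone genes and 5.61% of all genes tested. The difference was 4.02 ± 0.71 on the log2 scale (adjusted p = 0.000944, limma). Hist1h1c, the linker histone with the same stem-loop, was at 4.63, 0, 6.97 and 5.01 in control and 6.97 to 45.3 (median 27.3) in light libraries. These groups too were just apart, and the difference was 2.53 ± 0.68 (adjusted p = 0.0196, limma). Hist1h1b was at 8.33, 0, 0 and 12.5 in control and 7.36 to 46.6 (median 25.1) in light libraries, with overlap, and the difference was 2.73 (adjusted p = 0.0243, limma).

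Among the core histones, Hist2h3b was at 25.9, 3.73, 16.3 and 1.67 in control and 18.6 to 90.4 (median 56.3) in light 8-cell libraries. Control library 1 overlapped the light libraries, and the difference was 2.55 (adjusted p = 0.00655, limma). The other H3 gene, Hist1h3i, had 0 reads in the 4 control libraries and 1.55 to 15.9 (median 10.2) in light libraries, from 158 reads. It was at least 4.09-fold higher in light libraries against the level of 3 reads per library (adjusted p = 0.00651, limma). The H4 gene Hist2h4 was at 0.926, 0, 13.9 and 0 in control and 2.71 to 61.4 (median 27.8) in light libraries. Only control library 3 lay within the light range, and the difference was 3.39 (adjusted p = 0.0121, limma).

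Without control 8-cell library 2 the calls of Hist1h1c and Hist1h1b were lost, without control library 3 that of Hist1h1b, and without light library 8 Hist1h2ae and Hist1h3g were added. The same 6 genes were called under both alternative scalings, and edgeR called 3 (Hist1h1e, Hist1h3i and Hist2h3b). Other measures moved with this difference. The summed value of 16 S-phase genes was 968 to 1525 (median 1421) in control and 1539 to 2606 (median 2147) in light 8-cell libraries, and that of 7 RNAs made without a poly(A) tail was 8.13 to 25.0 (median 15.4) and 20.5 to 49.6 (median 30.3). The median percentage of reads on the ribosomal pair was 75.2 in control and 70.4 in light libraries. The part of these measures in the difference was not tested.

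**Figure D3:**
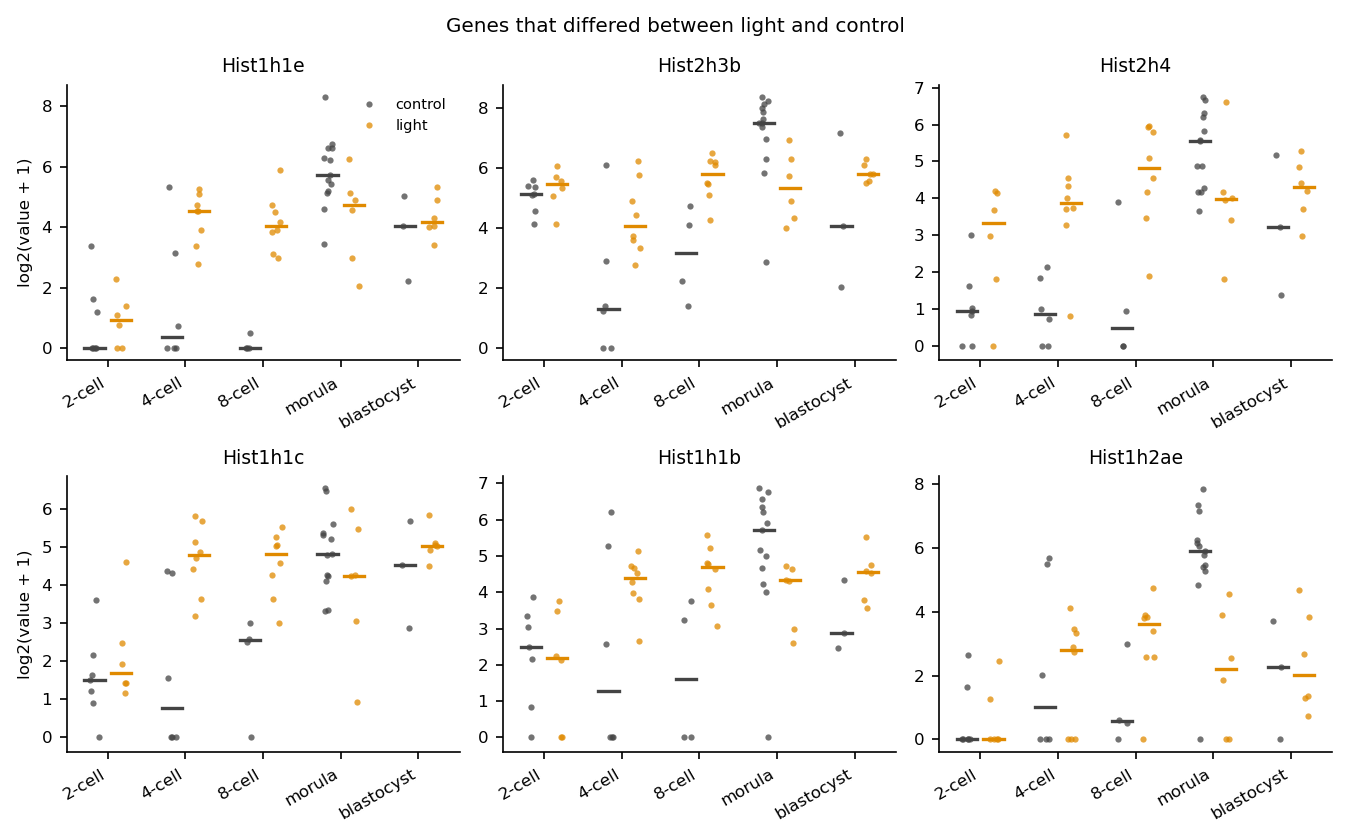
Deposited values on a log2(value + 1) axis of Hist1h1e, Hist2h3b, Hist2h4, Hist1h1c, Hist1h1b and Hist1h2ae in every library by stage, grey for control, orange for light, with a bar at each median. At the 8-cell stage most light libraries lie above the control libraries, and in morulae the medians of the light libraries lie below those of the control libraries.

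In morulae the called genes were lower in light embryos. Of 45 genes tested, 2 were lower in light embryos and 0 higher (4.44%, against 1.18% of all genes), and the median was -0.64 against 0.10. Both called genes encode H2A. Hist1h2ae was at 0 to 233 (median 59.0) in control morulae, with reads in 12 of 13 libraries, and 0 to 22.4 (median 3.73) in light morulae, with reads in 4 of 6. The groups overlapped, and the difference was -3.51 ± 0.80 on the log2 scale (adjusted p = 0.0231, limma). Hist1h2ao, which shares most of its sequence with other H2A genes, was at 2.12 to 40.1 (median 14.0) in control and 0 to 7.47 (median 0.787) in light morulae, a difference of -2.68 ± 0.66 (adjusted p = 0.0356, limma).

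Neither morula call held when light library 5 or 12 was omitted. That of Hist1h2ae was also lost without light library 1, and that of Hist1h2ao without light library 3 or 9 or control library 9, 16 or 23. A pseudocount of 0.1 or no filter lost Hist1h2ae, and edgeR lost Hist1h2ao. Without control library 26, which had the lowest histone sum of its group, 368, and 57.9% of its reads on the ribosomal pair against a group median of 79.1%, 4 genes were called, with Hist2h3b and Hist1h2ap added. In the full set Hist2h3b was at 6.37 to 331 (median 182) in control and 15.2 to 122 (median 41.2) in light morulae, with a difference of -1.76 (adjusted p = 0.117, limma). The type medians were -1.52 for H1, -1.25 for H2A, -0.92 for H4, -0.10 for H3 and -0.00 for H2B. The S-phase genes summed to a median of 1933 in control and 2231 in light morulae, and the RNAs made without a poly(A) tail to 21.5 and 9.53.

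In blastocysts 0 of 38 genes were called by limma, where 5.34% of all genes were called, with 2 at an unadjusted p under 0.05 and 0 calls by edgeR. The median was 0.63 for the histone genes tested and -0.64 for all genes. Hist1h4d was at 13.2, 78.6 and 18.0 in control blastocysts and 23.9 to 144 (median 84.4) in light blastocysts. The groups overlapped through control library 2, and the difference was 1.50 (adjusted p = 0.127, limma). Hist2h3b, at 3.16, 143 and 16.1 in control and 44.2 to 78.4 (median 55.0) in light blastocysts, differed by 1.41 (adjusted p = 0.228, limma). It was called without control library 2, in which the histone genes summed to 786 against 63.6 and 173 in the other two, and Hist1h4d was called without light library 23. Among the 38 histone genes Hist4h4 alone had groups that did not overlap at this stage, where 12.5% of all genes had such groups. It was at 0, 1.39 and 0 in control and 2.10 to 8.33 (median 3.17) in light blastocysts.

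**Figure D4:**
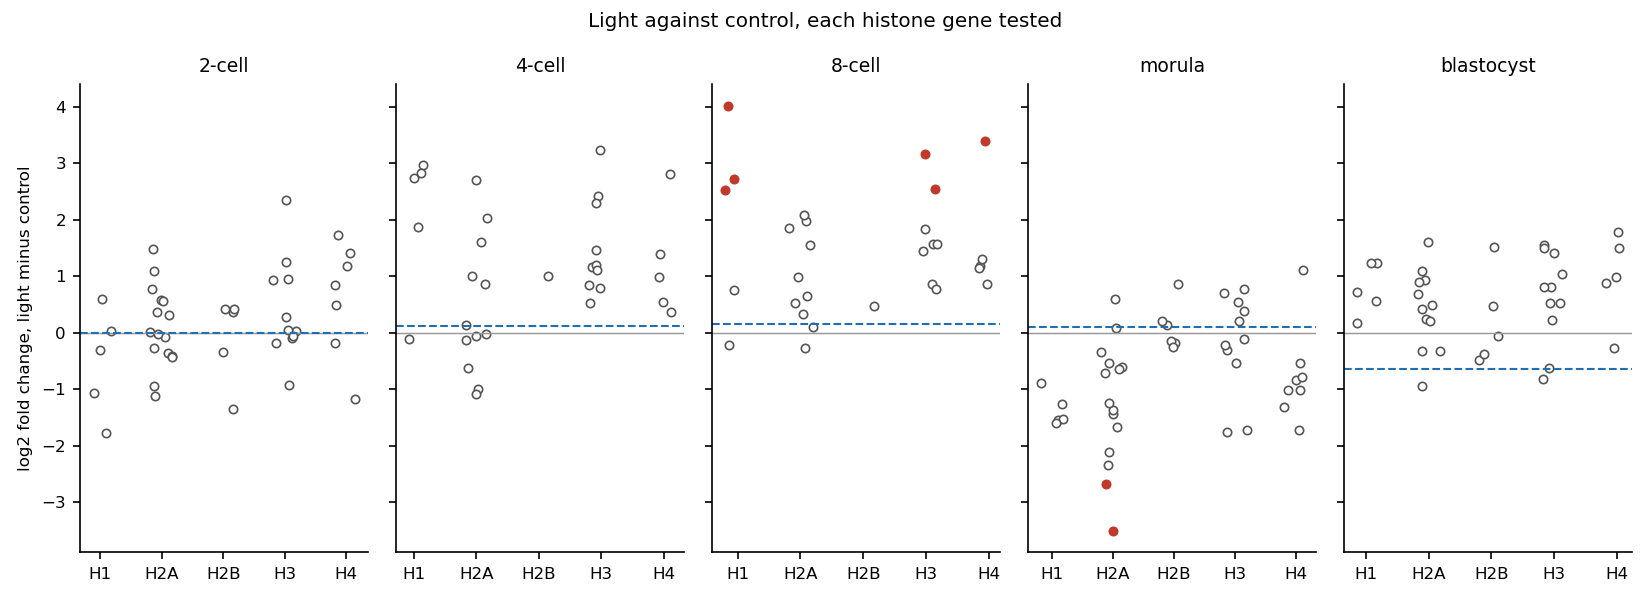
Log2 fold change, light minus control, of each histone gene that passed the filter, by type and stage, on the log2(value + 1) scale; filled red points passed the test, open points did not, the dashed blue line is the median of all genes tested and the grey line 0. The 6 filled points at the 8-cell stage lie above 0 and the 2 in morulae below 0, and in blastocysts the histone genes lie mostly above the median of all genes of -0.64.

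The proteins that make, cut and place the histones were compared over the same stages. Of 14 genes that act in histone gene transcription, 3′ processing and decay, 13 were tested at the 2-cell stage and 2 were higher in light embryos (10.5% of all genes were called). They were Eri1, an exonuclease that trims the stem-loop end (mean 26.9 and 83.2 in control and light libraries, log2 fold change 2.19, adjusted p = 0.0430, limma), and Cpsf3, the endonuclease of the cleavage complex (16.3 and 65.2, 1.99, adjusted p = 0.0487, limma). edgeR called Cpsf3 alone. The median of the list was -0.30 against 0.00 over all genes. In 4-cell and 8-cell embryos, morulae and blastocysts, limma and edgeR called 0 of its genes, with 2, 3, 0 and 5 at an unadjusted p under 0.05. Slbp, the stem-loop binding protein itself, had means of 285 and 528 in control and light 2-cell libraries, 208 and 266 in 4-cell, 111 and 188 in 8-cell, 76.2 and 76.6 in morula and 150 and 81.0 in blastocyst libraries. Its adjusted p was 0.0990, 0.445, 0.209, 0.854 and 0.280 in that order (limma), so no difference passed the test.

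Replacement histones are for the most part made outside S phase from mRNAs with poly(A) tails, and 11 of 12 were tested at each stage. At the 2-cell stage H2afz (H2A.Z), at a mean of 396 in control and 800 in light libraries, was higher by 1.24 on the log2 scale (adjusted p = 0.0243, limma), and H3f3a (H3.3), at 258 and 526, by 1.16 (adjusted p = 0.0207). These were 2 of 11 genes, where 10.5% of all genes were called. edgeR called both and H1f0, a linker histone with means of 124 in control and 56.4 in light libraries (-1.13, adjusted p = 0.0513, limma). At the 8-cell stage H2afv was higher by 1.55 (49.2 and 124, adjusted p = 0.0116, limma) and Cenpa, the centromeric H3, lower by a log2 change of -1.21 (300.0 and 134, adjusted p = 0.0145, limma), 2 of 11 genes where 9.21% of all genes were called. edgeR called Cenpa alone. H2afz at the 8-cell stage, at 238 and 405, differed by 0.75, which was short of a 2-fold change, and H3f3b, at 920 and 1580, by 0.74. The median of the list was 0.12 in 2-cell and 0.74 in 8-cell embryos, against 0.00 and 0.16 over all genes. At the 4-cell, morula and blastocyst stages limma called 0, with 1, 5 and 2 at an unadjusted p under 0.05, and edgeR called 0, 1 (H3f3a) and 0. H1foo, the linker histone of the oocyte, had means of 114 and 55.1 at the 2-cell stage and at most 8.99 in any later group, while the means of H3f3b lay between 503 and 2300 throughout.

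Of 16 histone chaperones, Hat1, which acetylates new H4, was higher in light embryos at the 2-cell stage by 2.09 (15.8 and 59.5, adjusted p = 0.0413, limma) and at the 8-cell stage by 1.73 (25.4 and 79.7, adjusted p = 0.0383). Asf1b, a chaperone of H3 and H4 that accompanies proliferation, was higher at the 8-cell stage by 3.73 (3.55 and 48.2, adjusted p = 0.00146, limma). Rbbp4, a subunit of chromatin assembly factor 1, was higher at the 2-cell stage by 1.64, and Atrx lower in light blastocysts by a log2 change of -1.98. In 2-cell embryos limma thus called 2 of 16 chaperones, where 10.5% of all genes were called. In 8-cell embryos it called 2 of 16, against 9.21% of all genes. Among the 15 chaperones tested in blastocysts it called 1, against 5.34% of all genes. It called 0 chaperones in 4-cell embryos and morulae. edgeR called Hat1 and Rbbp4 at the 2-cell stage and Asf1b alone at the 8-cell stage, and 0 chaperones in blastocysts. Of 16 S-phase genes, Ccne1, Mcm6, Cdc45 and Tyms were higher and Ccne2 lower in light 2-cell embryos, Ccne1 was higher in light 4-cell embryos, Rrm2 and Tyms in light 8-cell embryos and Rrm2 in light morulae. In that order of stages 5, 1, 2 and 1 of 16 S-phase genes were called, against 10.5%, 1.45%, 9.21% and 1.18% of all genes. edgeR lost Tyms at the 2-cell and Ccne1 at the 4-cell stage. The median of the S-phase list was 0.92 in 2-cell and 0.44 in 8-cell embryos. Rrm2, a subunit of ribonucleotide reductase, was at a mean of 86.7 in control and 458 in light 8-cell libraries (2.64, adjusted p = 4.83e-05, limma) and 404 and 989 in morulae (1.36, adjusted p = 0.00988, limma).

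Among RNAs made without a poly(A) tail, Rpph1, the RNA of RNase P, was higher in light embryos at the 8-cell stage by 2.65. It was 1 of 5 genes of that list tested (9.21% of all genes were called). In light 2-cell libraries the cumulus gene Tnfaip6 was higher by 2.65 (1 of 4 tested). The oocyte genes Bmp15 and Nlrp5 were lower there by log2 changes of -2.19 and -1.10 (2 of 11 tested), where 10.5% of all genes were called. The lists did not move together. By means, the cumulus genes Star and Foxl2 were lower and Ptgs2 higher in light 2-cell libraries. Among the oocyte and embryo genes, Zp3 and Zscan4d were higher and Gdf9 and Padi6 lower. Pou5f1 (2.07), Krt8 (3.08) and Krt18 (2.51) were higher in light 8-cell libraries, Nanog was lower in light morulae (-3.04) and blastocysts (-4.48), and Pou5f1 was lower in light blastocysts (-1.23). The calls were 3 of 10 at the 8-cell stage, 1 of 11 in morulae and 2 of 9 in blastocysts. Of all genes 9.21%, 1.18% and 5.34% were called there. edgeR did not call Rpph1, Tnfaip6, Krt18, Nanog in morulae or Pou5f1 in blastocysts, and called Terc at the 2-cell stage and Inhba in morulae besides. The sperm genes passed the filter at the 4-cell stage alone, 1 of them, and it was not called.

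Over the 10 group means, the histone genes whose course was closest to that of the summed H2A, H2B and H4 values were Hist2h2bb, which is itself part of that sum (Spearman's rho 0.92), and the H3 genes Hist1h3c (0.90), Hist1h3d (0.88), Hist1h3b (0.83) and Hist2h3c2 (0.76). Hist2h2bb had 12 reads in all, in 9 libraries, and passed a value of 1 in 3 of them, so its group means lie near the floor. Hist1h3c had 84 reads in 29 libraries. These rank correlations are a description over means that share libraries with the sum.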

How the data were processed

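Single cells of mouse embryos were sequenced by the authors with SMART-seq2. The submitters' processing notes name HISAT2, HTSeq 0.9.1 and the mm9 assembly. The deposited table holds a signal per gene and library: read numbers that the authors divided by a factor of the library, without division by gene length, although the study's methods describe RPKM. Whole reads were recovered from the deposited values (at least 99.97% of values within 0.01 of a whole read), which also gave the depth per library. No 2 libraries of a group held identical reads.

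The histone genes and 8 gene lists (94 genes, 6 of them not analysed here) were chosen with earlier results of these data known. The comparisons were light against control at every stage, consecutive stages within each condition, and the stage changes between conditions as an interaction. In R 4.3.3, log2(value + 1) was fitted with limma 3.58.1 (lmFit, then trended eBayes) for all genes that exceeded a value of 1 in 3 or more libraries of the fit. A gene was called at a Benjamini-Hochberg adjusted p under 0.05 over all genes tested and a change of at least 2-fold, or an interaction of at least 1 on the log2 scale. Fold changes on this scale understate the change of genes at low values. Errors beside fold changes are standard errors. The procedure was tested on simulated data with 200 genes changed. Python 3.11.15, numpy 2.4.6, pandas 2.3.3 and matplotlib 3.10.9 were used for the rest.

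Named genes were, by rule, the 3 of each type with the highest mean value, up to 6 called at a stage, up to 2 in each direction at a stage change, up to 3 per interaction, the testis-type genes, up to 3 called genes of a list and stage, Slbp, H2afz, H3f3a, H3f3b and H1foo, and up to 5 with a course like the summed H2A, H2B and H4 values. Other genes were named after their values had been seen. Alternatives were a pseudocount of 0.1, no filter, scaling by median ratios, scaling to the reads outside the ribosomal gene pair, edgeR 4.0.16 (quasi-likelihood test on the recovered reads), a replicate block, omission of each library, and omission of control 4-cell libraries 1 and 2 together, which was chosen after seeing the data.

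Sequences came from GENCODE M21 transcripts on GRCm38 and RefSeq on GRCm38.p6. Their coordinates are those of these assemblies and not of mm9, on which the reads were counted. Counting by strand was not given in the sources used here, and 22 histone genes overlap another annotated gene.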

Additional observations from a re-analysis of the deposited data

Results flagged for a closer look

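Single libraries stood far from the others of their group in 8 of 62 group values examined (Dixon's test, groups of 4 to 10 libraries), where chance gives about 1 in 20. The summed H1 value was 81.6 in light 2-cell library 16 and 8.38 to 28.0 in the other 5, and 189 in light 8-cell library 5 and 44.1 to 96.6 in the other 7. The summed H2B value of control 8-cell library 2 was 2.66 where the other 3 libraries had 0, and the summed H3 value of control 4-cell library 1 was 85.2 against 0.978 to 23.6. Hist1h1e was at 0.417 in control 8-cell library 4 and 0 in the other 3, but this is 1 read and under the level of 3 reads. This value and the H2B sum stand apart only because the other 3 libraries are at 0, so the 8 should not be read against chance. In light 8-cell library 5 Hist1h1e was at 58.0 against 6.98 to 25.9. Hist2h4 was at 13.9 in control 8-cell library 3 against 0 to 0.926. Hist1h2ao was at 7.47 in light morula library 6 against 0 to 2.53.

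The change between stages differed between light and control, by the interaction test in limma, for 8 pairs of gene and step. For Hist1h1d from 2-cell to 4-cell the difference was 3.89 on the log2 scale. From 8-cell to morula it was -5.54 for Hist1h1e, -5.59 for Hist1h2ae, -4.70 for Hist2h4, -4.31 for Hist2h3b, -4.19 for Hist1h2ap, -3.98 for Hist1h1b and -3.41 for Hist1h1c. The calls of Hist1h1d, Hist1h1b and Hist1h1c were lost in 9, 8 and 9 omissions of a library, as given with each gene above, and edgeR called 4 of the 7 and not Hist1h1d. Hist1h1b was called under none of 5 other settings, and Hist1h1c under 1 of 5.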

How the results depend on the processing

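The counts below are histone genes called. With a pseudocount of 0.1 the count went from 2 to 1 for light against control in morulae, from 1 to 0 from 4-cell to 8-cell in light embryos, from 2 to 1 from morula to blastocyst in light embryos and from 1 to 0 for the interaction from 2-cell to 4-cell. Without the filter the first 3 of these counts were also 1, 0 and 1, and that from 2-cell to 4-cell in control embryos went from 11 to 7. Scaled by median ratios, 1 gene was called for light against control at the 2-cell stage and 1 in blastocysts (0 and 0 before), 6 (before 2) from morula to blastocyst in light embryos and 2 (before 0) for that interaction. Scaled to the reads outside the ribosomal gene pair the counts were 1 at the 4-cell stage and 1 in blastocysts (0 and 0 before), 4 from morula to blastocyst in light embryos and 2 for that interaction. With edgeR the counts were 3 (before 6) at the 8-cell stage, 1 in morulae, 3 (before 8) from morula to blastocyst in control embryos, 0 from 4-cell to 8-cell in light embryos, 0 for the interaction from 2-cell to 4-cell and 4 (before 7) for that from 8-cell to morula. Without control 4-cell libraries 1 and 2 the counts were 6 (before 0) for light against control at the 4-cell stage and 4 (before 1) for the interaction from 2-cell to 4-cell. The causes were not tested. No called histone gene changed sign under the alternatives run for its comparison.

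Omission of each library in turn gave 0 to 1 calls for light against control at the 2-cell stage, 0 to 6 at the 4-cell, 4 to 8 at the 8-cell, 0 to 4 at the morula and 0 to 1 at the blastocyst stage. Over the stage steps it gave 7 to 11, 0 to 0, 6 to 14 and 2 to 10 in control embryos, and 11 to 13, 0 to 1, 0 to 1 and 1 to 2 in light embryos. The interactions gave 0 to 3, 0 to 0, 5 to 9 and 0 to 2. Omission of control 4-cell 4 or 5 gave the 7. Omission of control morula 26 gave the 4 in morulae, the 14, the 10, the 2 of the last interaction and, like that of light 8-cell 8 or light morula 6, the 9. The 1 in light embryos from 8-cell to morula came without light 8-cell 10 or light morula 5.

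Libraries of the same number did not deviate together (correlations of -0.0873 to 0.0695, 0 over 0.1), and not every library correlated best with its own number, so the numbers were not taken to pair them. With a replicate block the counts were 0 for light against control in morulae, from 8-cell to morula and from morula to blastocyst in control embryos, from 2-cell to 4-cell and from 4-cell to 8-cell in light embryos, and for the interaction from 2-cell to 4-cell. Calls over all genes fell to 0 in the first 4 of these. No replicate block could be fitted for 7 comparisons whose groups share fewer than 2 numbers.

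Scaling moved the median log2 fold change of all genes from -0.64 to -0.09 and -0.03 in blastocysts, where the histone median went from 0.63 to 0.96 and 1.20, from 0.10 to 0.21 and 0.24 in morulae (histone -0.64 to -0.59 and -0.58) and from 0.16 to 0.03 and 0.07 at the 8-cell stage (histone 1.30 to 1.20 and 1.05). Depth limits the low genes: 3 reads corresponded to a value of up to 11.7.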
